A study of Homo sapiens with 4 samples.

Results

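PML binding was mapped by chromatin immunoprecipitation and sequencing (ChIP-seq) at the genes of the 2 mTOR complexes in MDA-MB-231, a human cell line from a breast cancer without oestrogen, progesterone and HER2 receptors. The labels name 2 libraries made with an anti-PML antibody and 2 input libraries from cross-linked cells grown in serum. They name no treatment, genetic change or second cell line. The submitters merged the duplicates, so the deposited result is 1 list of 68937 peaks in hg38 coordinates, each with a score, and no value below has a replicate error. The genes were MTOR, RPTOR, RICTOR, MLST8, DEPTOR, AKT1S1, MAPKAP1, PRR5, TELO2 and TTI1. A peak belonged to the set when the table named 1 of these 10 as its nearest gene, or when it lay on chromosome 1 from 11106535 to 11262551, the MTOR gene. This gave 33 of the 68937 peaks: 30 by name, and 3 more inside MTOR for which another gene was named. All 10 genes were named at least once. The table named 13948 protein-coding genes in all, beside 20037 in RefSeq.

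mTOR is a serine/threonine kinase that works in a pair of large complexes. In complex 1, with the scaffold raptor, it senses nutrients and drives ribosome production and translation. In complex 2, with the scaffold rictor, it phosphorylates AKT and related kinases downstream of growth factors. PML is best known as the scaffold of nuclear bodies and as a senescence and tumour suppressor protein, and the series title joins it with mTOR and the promoter-binding zinc-finger protein RONIN. The table shows where PML peaks were called in chromatin. It holds no expression, and binding of the mTOR protein was not measured in it.

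MTOR and RICTOR, the kinase and the scaffold of complex 2, carried the strongest peaks and in opposite places. RICTOR had its peak on the transcription start site (TSS), with a score of 450, and MTOR had none there but 4 peaks with scores from 221 to 1192 inside the gene. A promoter peak, taken as a peak centred within 1000 bp of the TSS of the gene it is named for, was present at 8 of the 10 genes. Among all 13948 protein-coding genes named in the table the share was 78.6%, so 8 of 10 is near the background of named genes. Genes for which no peak is named are left out of that share. In all, 10958 genes had a promoter peak, and RefSeq holds 20037 protein-coding genes. The median of the highest promoter score was 55 over the 8 genes and 63 over the 10958 genes with a promoter peak. The score is the authors' own whole number, with a lowest value of 13 and a median of 34 over the list. The sources used here do not state its scale, so scores only rank peaks within this list.

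**Figure D1:**
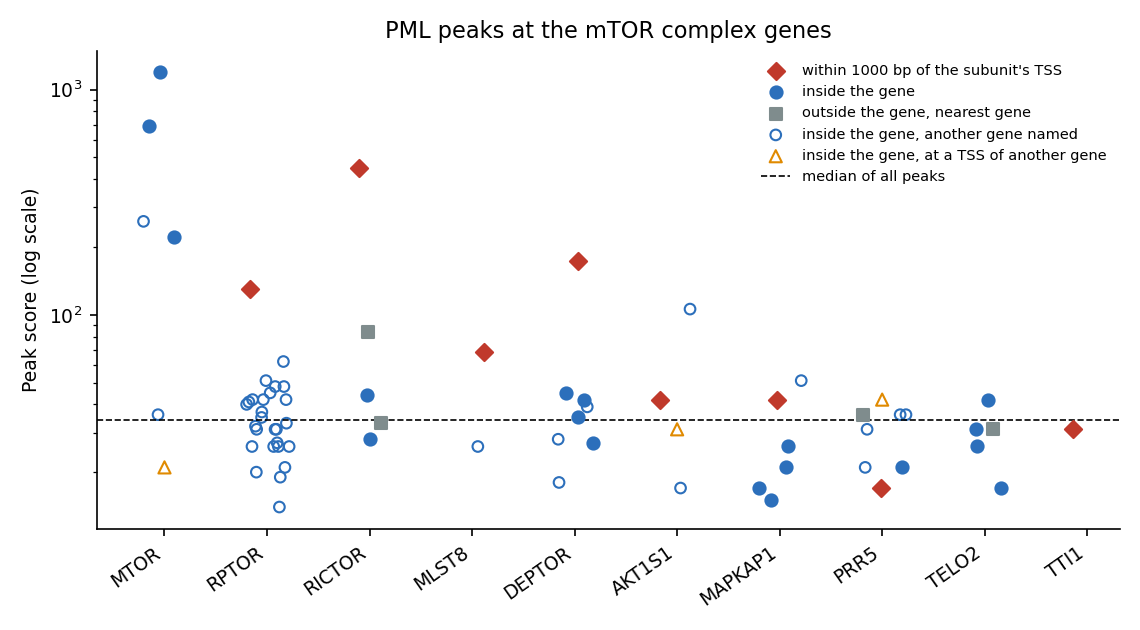
Score of each PML peak (log scale) at the 10 mTOR complex genes, with the median of all peaks (34) as a dashed line; filled symbols are peaks named for the gene, and open symbols lie inside the gene but are named for another. The MTOR peaks at 687 and 1192 lie above all others, the RICTOR promoter peak stands at 450, and RPTOR has 26 open circles between 14 and 62.

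The kinase and the subunits common to both complexes differed from one another at the promoter. MTOR had no peak centred within 1000 bp of its start. MLST8, a WD-repeat protein that binds the kinase domain, had a peak 387 bp from its TSS on chromosome 16 from 2205262 to 2206420. Its score was 68, just above the middle of all promoter peaks by gene, since 51.8% of genes with a promoter peak had a lower one. DEPTOR, an inhibitor of both complexes, had a peak 385 bp from its TSS on chromosome 8 from 119873631 to 119874583. This peak overlay a CpG island in intron 1, had a score of 174 and was higher than the promoter peak of 91.3% of genes.

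Of the subunits particular to complex 1, RPTOR, the raptor scaffold that recruits substrates, had the higher promoter peak. It lay in the 5' UTR, 268 bp from the TSS, and spanned chromosome 17 from 80544794 to 80545418. Its score was 130, above 82.1% of genes with a promoter peak. AKT1S1, which encodes the inhibitor PRAS40, had a peak 253 bp upstream of a TSS, on chromosome 19 from 49876281 to 49876724. Its score of 42 was above that of 25.7% of genes. A second peak, with a score of 31 from 49877264 to 49878258, also lay inside AKT1S1. It was centred 59 bp from the start of the neighbouring gene TBC1D17, for which the table names it. Measured from the RefSeq start of AKT1S1, the peak of 42 lay 1.85 kb into the gene and the peak of 31 lay 0.595 kb into it.

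The complex 2 subunits covered the widest range of promoter scores. The RICTOR peak on chromosome 5 from 39073515 to 39075322 was centred 19 bp upstream of the TSS and 1808 bp wide. It stood at rank 60 of the whole list, and 99.8% of genes with a promoter peak had a lower one. A promoter peak with a higher score, 478, lay within 1 Mb of RICTOR. MAPKAP1, which encodes SIN1, the subunit that binds complex 2 substrates, had a peak centred 5 bp from its TSS on chromosome 9 from 125706874 to 125707532, with a score of 42. PRR5, which encodes protor-1, a rictor-binding protein, had 17, on chromosome 22 from 44668761 to 44669020 over a CpG island. That is a low score, with 0.84% of genes lower. The most downstream PRR5 start carried a peak from 44701756 to 44702034 with a score of 42, which the table names for the readthrough gene PRR5-ARHGAP8.

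TELO2 and TTI1 encode a chaperone assembly that helps mTOR and related kinases fold and join their complexes. TTI1 had a promoter peak centred 62 bp upstream of its TSS on chromosome 20 from 38033102 to 38033935, with a score of 31, above 12.3% of genes. It was the only peak named for TTI1, and none lay elsewhere in the gene. TELO2 had no peak inside the window. Its nearest peak, in exon 2 on chromosome 16 from 1494330 to 1494624 with a score of 31, was centred 1117 bp from the TSS, just beyond the limit, while the farthest of the 8 promoter peaks counted was the MLST8 peak at 387 bp. In descending order the promoter scores were thus 450 at RICTOR, 174 at DEPTOR, 130 at RPTOR, 68 at MLST8, 42 at both AKT1S1 and MAPKAP1, 31 at TTI1 and 17 at PRR5. Without replicates, it cannot be said which neighbours in this order differ by more than their error.

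The promoter sequences of RICTOR and RPTOR, the scaffolds of the 2 complexes, are shown beside those of MTOR and TELO2, the 2 genes without a promoter peak. They are the 250 bases before the RefSeq gene start, on the strand of the gene and 5′ to 3′, from RefSeq sequence of GRCh38.p14. Capitals mark matches, on either strand, to the motifs listed after them. RICTOR is chr5:39074400-39074649 on the minus strand, RPTOR chr17:80544588-80544837 on the plus strand, MTOR chr1:11262552-11262801 on the minus strand and TELO2 chr16:1493110-1493359 on the plus strand.
RICTOR: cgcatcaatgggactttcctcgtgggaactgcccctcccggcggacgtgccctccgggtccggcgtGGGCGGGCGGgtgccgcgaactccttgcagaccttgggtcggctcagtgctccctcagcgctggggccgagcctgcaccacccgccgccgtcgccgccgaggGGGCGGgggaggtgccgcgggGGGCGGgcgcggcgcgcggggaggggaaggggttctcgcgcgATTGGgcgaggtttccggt
RPTOR: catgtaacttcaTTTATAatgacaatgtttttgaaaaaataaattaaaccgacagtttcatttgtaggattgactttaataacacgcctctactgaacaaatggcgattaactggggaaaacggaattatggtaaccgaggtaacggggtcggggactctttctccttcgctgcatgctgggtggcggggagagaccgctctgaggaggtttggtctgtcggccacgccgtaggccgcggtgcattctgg
MTOR: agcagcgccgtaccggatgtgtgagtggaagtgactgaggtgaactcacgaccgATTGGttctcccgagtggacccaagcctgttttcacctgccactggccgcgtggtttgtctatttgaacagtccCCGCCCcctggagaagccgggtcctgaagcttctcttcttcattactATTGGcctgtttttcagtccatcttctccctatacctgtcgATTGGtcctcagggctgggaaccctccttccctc
TELO2: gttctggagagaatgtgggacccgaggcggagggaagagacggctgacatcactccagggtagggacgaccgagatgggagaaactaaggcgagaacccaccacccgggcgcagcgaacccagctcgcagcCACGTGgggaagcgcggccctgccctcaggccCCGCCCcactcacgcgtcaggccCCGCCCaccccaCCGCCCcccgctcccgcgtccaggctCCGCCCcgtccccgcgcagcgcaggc

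The RICTOR stretch, wholly inside the peak of score 450, had 76% G and C and 35 CpG dinucleotides. The RPTOR stretch had 47.2% and 15 CpG, MTOR 55.6% and 11, and TELO2 72.4% and 26. The medians over 22183 such stretches of protein-coding genes were 62% and 16. Where a peak overlapped the promoter window (these 250 bases and the next 50) they were 68% and 23, and elsewhere 53.6% and 6. TELO2 thus lay above the median of promoters with a peak in both measures although no peak overlapped its window. RPTOR lay below it in both, and its peak covered only 94 bases of the 300. RefSeq windows were found for 7 of the 10 genes, 9 windows in all because PRR5 has 3. Peaks overlapped 6 of the 9, against 51.3% of all windows. They were missing at MTOR, TELO2 and the middle PRR5 start.

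Letters of 7 motifs were searched on both strands of the 9 stretches. The GC box GGGCGG was present in 6 (53.7% of all stretches hold it), with 4 matches in RICTOR, where the pair at 184 and 180 bases upstream overlap. TELO2 also had 4, MTOR 1 and RPTOR none. CCAAT was found in 2 stretches against 32.7% of all: MTOR had 3 matches, 34, 75 and 196 bases upstream, and RICTOR 1. The E-box CACGTG was in 2 (7.38% of all), TELO2 and a PRR5 start. CCGGAAG, an ETS motif, was in the MAPKAP1 stretch (10.7% of all). TATAAA was in RPTOR (9.01%), and TGANTCA, the AP-1 motif, in a PRR5 start (5.35%). ACTACAANT, a part of the element that RONIN and ZNF143 bind, was in none of the 9 and in 1.6% of all. These are matches of letters in a short window, and factor binding was not measured.

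MTOR carried its signal inside the gene. The interval held 6 peaks. Going downstream from the gene start, the peak over exon 7 of 58, from 11247626 to 11248096, had a score of 1192. The next, from 11237844 to 11238619 in intron 12, had 687. Another, from 11230926 to 11231437 in intron 17, had 221, and the one after it, from 11212313 to 11212910 in intron 22, had 260. The latter is named in the table for ANGPTL7, a gene nested inside MTOR. These 4 peaks, 14.7 to 49.9 kb from the gene start, span 35.2 kb between their centres. The other 2 were low: 21 at the start of ANGPTL7, from 11189643 to 11189963, and 36 in intron 43, from 11127657 to 11128123. They fall to the level of the list as a whole, whose median is 34.

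**Figure D2:**
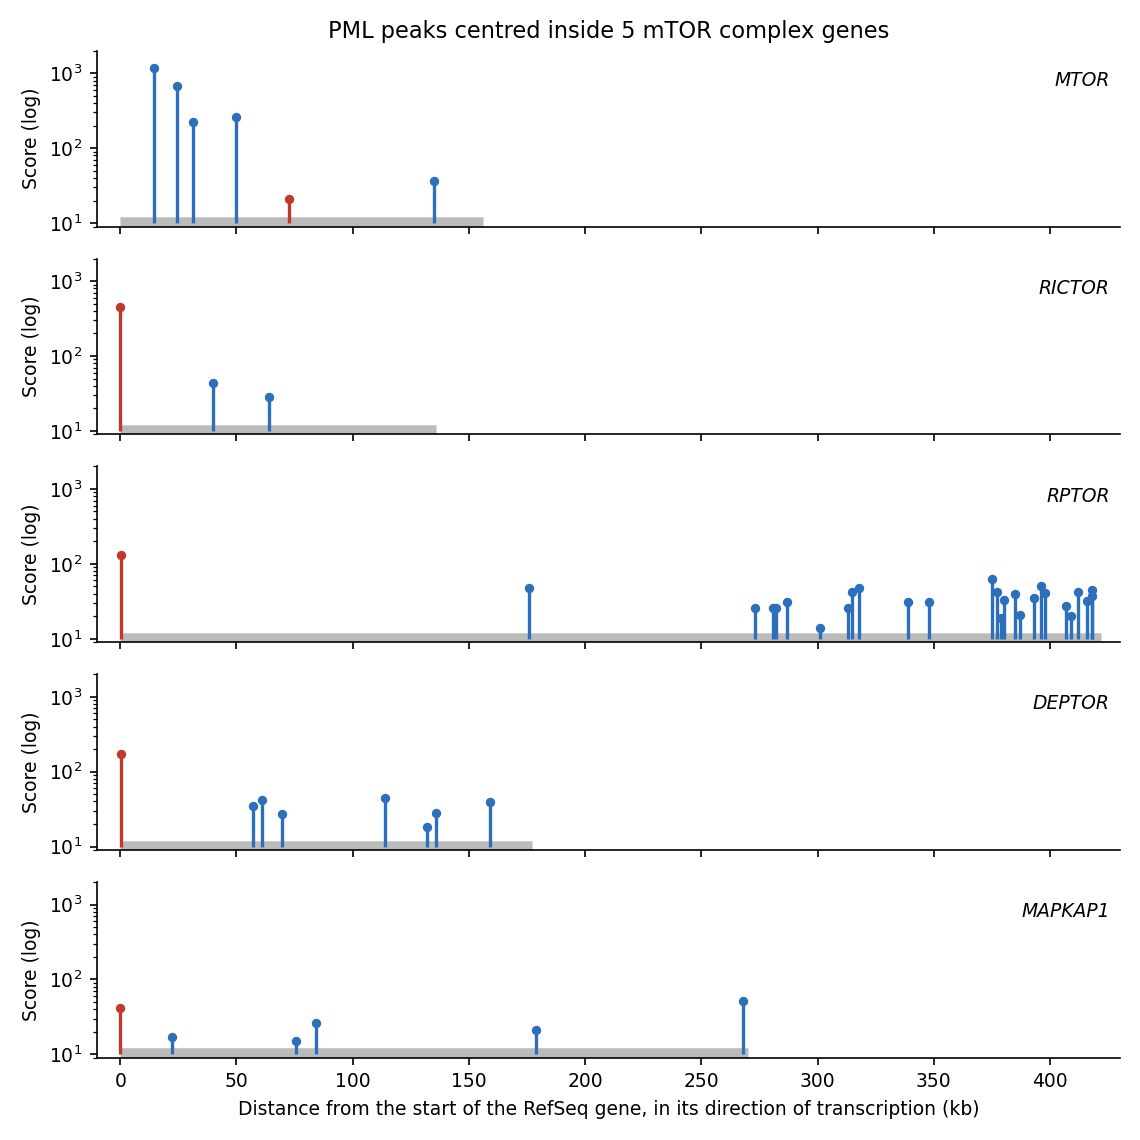
PML peaks centred inside 5 of the genes or at their start, by distance from the start of the RefSeq gene (kb) and score (log scale); the grey bar is the gene, red stems lie within 1000 bp of any TSS and blue stems farther away. The 4 high MTOR peaks lie between 14.7 and 49.9 kb, while RICTOR, RPTOR and DEPTOR have their highest peak at the start of the gene.

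No peak of like height lay near MTOR. Within 1 Mb on either side of the gene were 43 peaks. The 20 of them over 1000 bp from a TSS had a median score of 28.5 and a highest score of 75, and the 23 promoter peaks a highest score of 98. Over all 7677 protein-coding genes with a peak centred inside them more than 1000 bp from any TSS, MTOR ranked 2 by its highest such peak. DUX4, a gene of a repeated array, ranked 1 with 1386, and RECQL4 followed MTOR with 639. Among 928 genes within 1.2-fold of the length of MTOR, the median of the highest gene body score was 44 over those with such a peak. The number of gene body peaks was less exceptional: MTOR had 5 by position, more than 78.8% of these genes, whose median was 1.

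**Figure D3:**
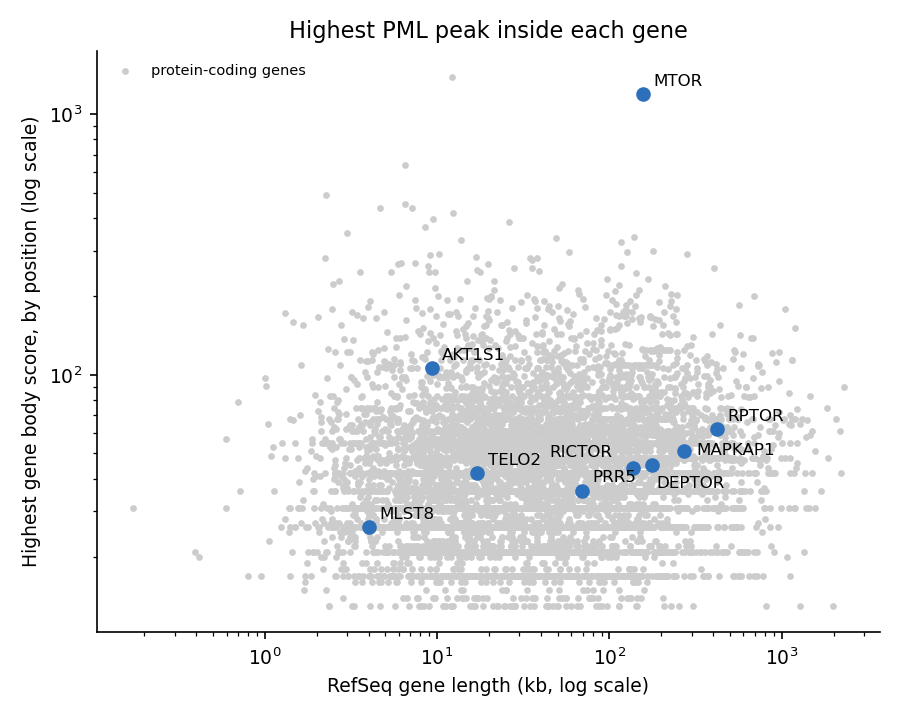
Highest score of a peak inside each protein-coding gene over 1000 bp from any TSS (log scale) against gene length in kb (log scale), with 9 mTOR complex genes in blue; TTI1 has no such peak. MTOR stands at 1192, and the other 8 lie between 26 (MLST8) and 106 (AKT1S1), within the grey cloud of other genes.

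The 4 high MTOR peaks were narrower than most peaks of like score away from promoters. Like most of those, they lay in no named repeat. Their widths ran from 471 to 776 bp with a median of 555 bp. Of 133 other peaks over 1000 bp from a TSS with scores from 221 to 1192, 44 (33.1%) were no wider than the widest of them. The 137 peaks of that range, MTOR's included, had a median width of 1104 bp, and 19.7% had a named repeat. By score per 100 bp of width the exon 7 peak ranked 11 of the whole list, with 253 against a median of 7.44. Score per 100 bp depends on the scale of the score, which is not stated, so this rank is only a description. Linking such high peaks within 20 kb of one another, with the lowest MTOR score of 221 as the limit, gave 113 groups, of which 98 held a single peak. Of the 113 groups, 4 held 4 or more peaks, and the 3 besides MTOR lay beside the pseudogenes LSP1P5 and GYG2P1 and the ribosomal RNA gene RNA28SN5. This limit and linking distance were chosen after the MTOR scores were seen, so the grouping is a description. What gave the MTOR peaks was not tested, and read coverage and input signal at them were not used here.

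Promoter and gene body peaks could be compared within a gene by their highest scores. By the table's nearest gene, 4 genes had both. RICTOR had 450 at the promoter and 44 in the body. DEPTOR had 174 and 45, and MAPKAP1 had 42 and 26. With the scale of the score unstated, only the order of the 2 values is read. PRR5 went the other way with 17 and 21. The promoter was thus higher in 3 of 4, against 77.0% of the 4220 protein-coding genes with both classes, a share near the background. A gene body peak of any height was named for 6 of the 10 genes, against 42.4% of all genes named. The 10 genes were not matched in length to the others, so this difference is not read as a trait of the set. For MTOR and TELO2 only the body had peaks, with highest scores of 1192 and 42. For RPTOR, MLST8, AKT1S1 and TTI1 only the promoter had.

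**Figure D4:**
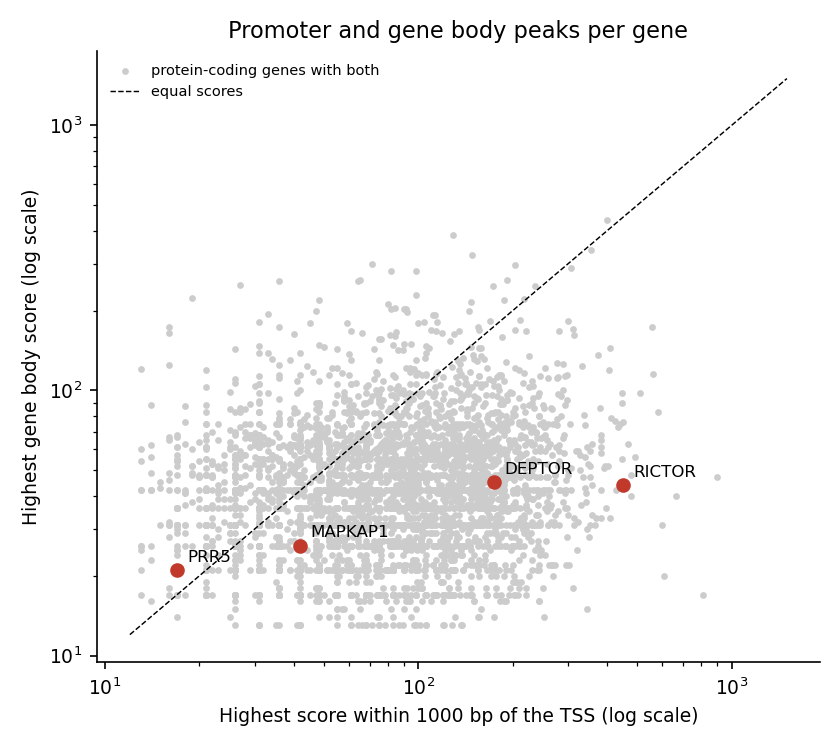
Highest gene body score against highest promoter score (both log scales) for the 4220 protein-coding genes with both kinds of peak (grey) and for 4 mTOR complex genes (red), with equal scores on the dashed line. RICTOR (450 and 44), DEPTOR (174 and 45) and MAPKAP1 (42 and 26) lie below the line, and PRR5 (17 and 21) above it.

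Over the 10 genes together, the nearest-gene column left out most of the peaks inside them, largely through RPTOR. By position, 57 peaks were centred inside the 10 RefSeq genes and over 1000 bp from any TSS, and 39 of them were named for another gene. Of these 39, 26 lay in RPTOR, while all 18 peaks named for their own gene lay in the other genes. The like share over all genes is not given here. RPTOR showed the largest gap: the table names it for 1 peak, yet 26 gene body peaks lie in it, 10 named for LOC101928855 and 16 for LOC400627. Counted by position, 9 of the 10 genes had a gene body peak, all but TTI1, against 38.3% of 20037 RefSeq protein-coding genes. These genes are not matched in length to the rest, and RPTOR, the longest of the 10, spans 422 kb.

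The RPTOR body peaks were many and low. Their scores ran from 14 to 62 with a median of 32.5, below the 130 of its promoter. They were sparse near the start, where the closest lay at 176 kb in intron 4 from 80720870 to 80721454 with a score of 48. In the last 100 kb of the gene there were 17. The highest, 62, lay in intron 21 from 80919766 to 80920320. RPTOR had more body peaks than 94% of 301 genes within 1.2-fold of its length, whose median was 2. Its density of 6.17 per 100 kb was close to the 5.75 per 100 kb of such peaks in the 1 Mb on either side.

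Position changed the comparison for AKT1S1 and MAPKAP1. A peak with a score of 106 lay in intron 4 of AKT1S1 on chromosome 19 from 49869827 to 49870484, and another with 17 in intron 3 from 49871563 to 49871880. Neither is named for AKT1S1 in the table. The higher is above the 42 of the AKT1S1 promoter, and it is the highest gene body peak of the set outside MTOR. In MAPKAP1 a peak with a score of 51 in intron 10, from 125438703 to 125440015, is named for GAPVD1 and is above its promoter score of 42. In MLST8 a peak of 26 near the gene end, named for BRICD5, stayed below the promoter score of 68. With gene body peaks taken by position and promoter peaks still by name, the promoter was the higher in 5 of the 10 genes, against 7 by name, where a class without a peak counts as lower. With promoter peaks also taken where they overlap a RefSeq promoter window of the gene, it was 6. The added gene was PRR5, whose peak of 42 at its most downstream start is above its highest body peak by position, 36. No share over all protein-coding genes by the same rules is given for the counts of 5, 6 and 7, so they have no background here.

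The remaining gene body peaks ran from a score of 15, above 2.36% of the list, to 51, above 75.4% of it. DEPTOR held 7 by position, with scores from 18 to 45. MAPKAP1 held 5, from 15 to 51, and PRR5 5, from 21 to 36. TELO2, only 17.1 kb long, held 4, from 17 to 42. The highest of these, in intron 17 from 1505841 to 1507440, was 1600 bp wide, the widest gene body peak named for any of the 10 genes. Outside MTOR the 52 gene body peaks had a median score of 31, the same as the median of all 55167 peaks of the list over 1000 bp from a TSS. Of the 24 peaks of the set over 1000 bp from a TSS, 5 had a score of 68 or more, which is 2 times the list median, against 7.18% of all such peaks. They were the 4 MTOR peaks and a RICTOR peak with 84, 11975 bp upstream of the gene from 39085852 to 39086897. Without the MTOR interval this was 1 of 19.

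A repeat was named for 9 of the 24 peaks away from promoters (37.5%), against 30.7% of all peaks over 1000 bp from a TSS. Of the 57 gene body peaks by position, 13 (22.8%) had one, so the share lay on either side of the background and near it. The 9 lay at RICTOR, DEPTOR and MAPKAP1. All 4 such RICTOR peaks had one. Inside the gene, an L1PA4 LINE in intron 2 carried the peak with 44 and a THE1C internal LTR sequence in intron 3 that with 28. Upstream, an L1MA4A LINE carried the peak with 84 and an LTR33 element that with 33. In DEPTOR the peaks over MIR, THE1D and L1P3 elements had scores of 42, 27 and 45. In MAPKAP1 an SVA_F retroposon had 26 and an L2c LINE 15. None of the MTOR, PRR5 or TELO2 peaks away from promoters had a named repeat.

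In the wider pathway, most genes named in the table also had a promoter peak. Of 31 genes of amino acid sensing upstream of complex 1, 20 were named in the table by the symbol searched. Of these, 18 (90%) had a promoter peak, with a median highest score of 51.5. SESN1, a leucine-sensor family gene, led with 358, and MIOS, a GATOR2 subunit, followed with 235. Of 26 genes of the TSC-RHEB axis and of effectors, 25 were named and 23 (92%) had one, with a median of 83. The lipid phosphatase LPIN1 led with 185. Of 10 paralogues and partners of the subunits, 9 were named and 7 (77.8%) had one, with a median of 36. SMG1, a kinase related to mTOR, led with 98, and ATR had 68. The RICTOR score of 450 was above all of these. The share over all protein-coding genes named was the 78.6% given above. Genes that the table does not name by the symbol searched, 11, 1 and 1 of the 3 lists, enter none of these shares. The shares over the full lists may thus be lower. SAMTOR, among the 11, is in the table under its older symbol BMT2, with a highest promoter score of 50. Older symbols were not searched, so the counts by list may be too low.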

How the data were processed

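The sequencing data of duplicate libraries of MDA-MB-231 cells (2 PML ChIP, 2 input) were merged by the authors, per the labels, which do not say at which step. Per the submitters' processing notes, the build was hg38 and the tools were MACS2 2.1.1.20160309, HOMER 4.11.1, BWA 0.7.12, Trimmomatic 0.36 and Picard 2.0.1, and their settings are not stated there. The deposited table gives each peak a whole-number score, and positions and TSS distances in bp, per the file headers. The lowest score, 13, is what -10 log10 of a q of 0.05 (13.01) gives when cut to a whole number, but no header states this scale. Depth per library is unknown from the table.

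A promoter peak was centred within 1000 bp of the TSS of its named gene. A gene body peak was named for the gene, over 1000 bp from the TSS, and inside the gene. Counts by position used RefSeq genes of GRCh38.p14, matched for 10 of 10 members. Repeats and CpG islands come from the detailed annotation. No test was made, because 1 merged list has no replicates and genes are not replicates. The members and lists were chosen with earlier results of these data known. All 10 members are described, and other genes as counts with up to 2 of the highest of each list; some genes that this rule names are not reported here. The assignment steps were checked on made-up peaks. Python 3.11.15, numpy 2.4.6, pandas 2.3.3 and matplotlib 3.10.9 were used.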

Additional observations from a re-analysis of the deposited data

How the results depend on the processing

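The limits of these values are those of 1 merged peak list with unknown depth and no replicate error. No paired analysis was possible because the table keeps no replicate apart, and for the same reason no library could be left out. The 8 genes with a promoter peak became 3 with the 5000 highest-scoring peaks (RICTOR, DEPTOR and RPTOR), and ran from 6 to 9 with the other windows, the higher-scoring peaks and overlap with the RefSeq gene start. No share over all protein-coding genes under these other settings is given, so these counts have no background here. The 18 gene body peaks by nearest gene became 8 with peaks at or above the median score, and 57 by position. The 6 peaks inside MTOR were 3 by nearest gene. The count of 7 genes whose promoter score was higher has no share over all genes beside it. It was 7 with both other windows, with median scores and with score per 100 bp. It was 5 with gene body peaks by position, and 6 with promoter windows by position too, both chosen after seeing the data. The promoter minus gene body score turned from 42 to -64 at AKT1S1 and from 16 to -9 at MAPKAP1 by position. By score per 100 bp of width it turned to -2.38 at MAPKAP1 and from -4 to 1.24 at PRR5. With both classes by position PRR5 turned to 6, and AKT1S1 and MAPKAP1 stayed at -64 and -9. For the other genes it kept its sign under all 6 alternatives, with an absent class counted as 0. Because the scale of the score is not stated, only the signs of these differences are read, and those per 100 bp depend on the scale.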
